A study of Homo sapiens with 24 samples.

Results

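MUTYH was deleted in HAP1 cells that already lacked OGG1, and the genomic pattern of 8-oxoguanine (OG) was compared between cells with the single and the double loss. HAP1 is a near-haploid human cell line that descends from the chronic myeloid leukaemia line KBM-7. The comparison used 12 of the 24 samples of the series, those with these 2 genotype labels. These were 3 OG pull-downs and 3 inputs of OGG1-/ cells, and 3 OG pull-downs and 3 inputs of MUTYH-/ X OGG1-/ cells, here called DKO. Both genotypes lack OGG1, grew in IMDM with serum and received no treatment, so that MUTYH is the only difference between their genotype labels. Each genotype is represented by 2 clones, with 2 pull-downs from 1 clone and 1 from the other. Both DKO clones were made from the second of the OGG1-/ clones, according to the study's list of guides. The pull-down columns of the deposited table are numbered only, as OG1 to OG3 and DKO1 to DKO3. They were not tied to clones here, nor to the experiment numbers that the labels also give. The p-values of the exact tests therefore rest on these columns, which mix clones and repeat pull-downs. Those of the main limma fits take their spread from all 12 pull-down columns, WT and MUTYH-/ included, which mix them likewise.

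OG forms when guanine is oxidised, and it can pair with adenine as well as with cytosine. OGG1 is the glycosylase that removes OG paired with cytosine. MUTYH acts one step later, on the adenine that a polymerase has placed opposite OG, and so does not remove OG itself. NUDT1 (MTH1) removes the oxidised nucleotide from the pool before it can enter DNA.

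The guide that created the shared OGG1-/ background is shown because every column compared here carries its cut. In GRCh38 it lies on the minus strand at chr3:9750308-9750330, inside exon 1 of OGG1 (9749952 to 9750423). Capitals mark the PAM.
OGG1 guide: gtacgatgccccatgcgcctGGG

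The measure was OG-seq, in which DNA fragments with OG are pulled down and sequenced beside untreated input DNA of the same cells. The deposited score of a 1 kb bin is the number of OG reads minus the scaled number of input reads, so a score below 0 means fewer OG reads than the input predicts. A relative level is the score divided by the mean score of its column over all 2835235 bins. Between 31.1 and 40.2 OG reads and between 34.4 and 35.8 input reads fell in a bin on average. The scaled input removed between 71.6 and 76.9 % of the OG reads of a column, and between 22.6 and 24.0 % of bins were below 0. Single bins were noisy at this depth. Pearson's r over 1 kb bins ranged from 0.086 to 0.181 between the OGG1-/ and DKO columns, whereas r over windows of 100 kb ranged from 0.729 to 0.892.

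DKO1 stood apart from the other columns. Its window values correlated with those of the other DKO and OGG1-/ columns at r between 0.729 and 0.756, while the pairs without DKO1 lay between 0.826 and 0.892. Its reads also went against its own input at deleted DNA. In the ROBO2 window at chr3:77400001-77500000, DKO1 had 4 input reads and DKO2 had 8, while the other 4 columns had 3193 to 3347. The DKO1 pull-down nevertheless held 208 OG reads there, 6.21 % of its mean per window, against 11 in DKO2. The origin of the DKO1 reads was not tested. Each result that rests on DKO1 is therefore given with the values of DKO2 and DKO3 beside it.

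The mean score over the genome, which is in reads and not scaled for depth, did not differ beyond the spread of the columns. The mean score per bin was 9.12 in OG1, 8.84 in OG2 and 9.71 in OG3 (9.23 ± 0.445, SD, n = 3). It was 8.34 in DKO1, 9.27 in DKO2 and 9.91 in DKO3 (9.17 ± 0.789, SD, n = 3). The groups overlapped, the difference was -0.0535 reads, and the two-sided exact permutation test gave p = 1.0. With 3 columns against 3 this exact test cannot go below p = 0.1.

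None of the 28395 windows of 100 kb passed the test between DKO and OGG1-/ (limma, Benjamini-Hochberg adjusted p below 0.05, 0 % called). The count without chromosome 6 from 95 to 170 Mb was taken from the same fit and so was necessarily 0 too. At an unadjusted p below 0.05, 1060 windows were higher in DKO (3.73 %) and 857 were lower (3.02 %). This split depended on the scaling. It was 800 higher and 1076 lower when columns were divided by their medians, and 1050 higher and 471 lower without scaling. Single columns moved the counts too. They were 645 and 471 without DKO1, 1705 and 1518 without DKO2, and 691 and 578 without OG2. In 1845 windows all 3 DKO columns lay above all 3 OGG1-/ columns (6.50 %), and in 1449 they lay below (5.10 %).

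Chromosome 6 from 95 Mb to 170 Mb differed from the rest of the genome in these counts. All 3 DKO columns were above all 3 OGG1-/ columns in 185 of its 750 windows (24.7 %) and below in 2. Outside the region the counts were 1660 above (6.0 %) and 1447 below (5.23 %) of 27645 windows. The median difference in relative level was 0.212 inside and 0.00563 outside. At a coarser scale, 5 of 2818 windows of 1 Mb were higher in DKO (limma, adjusted p below 0.05, 0.177 %), and all 5 lay on chromosome 6.

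The relative level of the whole region was 0.906 in OG1, 0.862 in OG2 and 0.895 in OG3. In the DKO columns it was 1.20, 1.17 and 0.924. DKO1 and DKO2 were thus clearly higher, whereas DKO3 lay just above the OGG1-/ columns. The means were 0.887 ± 0.0227 and 1.10 ± 0.149 (SD, n = 3), with an exact permutation p = 0.1, the smallest possible. WT cells were at 0.918 ± 0.00215 and MUTYH-/ cells at 0.906 ± 0.0382 (SD, n = 3).

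The DNA input of the same columns moved with this difference. Input reads relative to the column mean were 0.979, 0.987 and 0.995 in OG1 to OG3, and 1.30, 1.33 and 1.00 in DKO1 to DKO3. The ratio of OG to input reads, divided by the ratio of the whole column, was 0.981, 0.964 and 0.975 in OGG1-/ and 0.979, 0.972 and 0.980 in DKO. The groups overlapped in this ratio, with a difference of 0.00378 and an exact permutation p = 0.7. In steps of 5 Mb, the input of DKO1 and DKO2 was 1.08 and 1.11 from 100 to 105 Mb and 1.31 and 1.32 from 105 to 110 Mb, and it was 1.38 and 1.40 from 130 Mb to the chromosome end. DKO3 stayed between 0.825 and 1.10 in every step from 95 Mb on. DNA copy number in part of the cells and OG per copy cannot be told apart in a score of this kind. The ratio showed no difference beyond the spread.

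**Figure D1:**
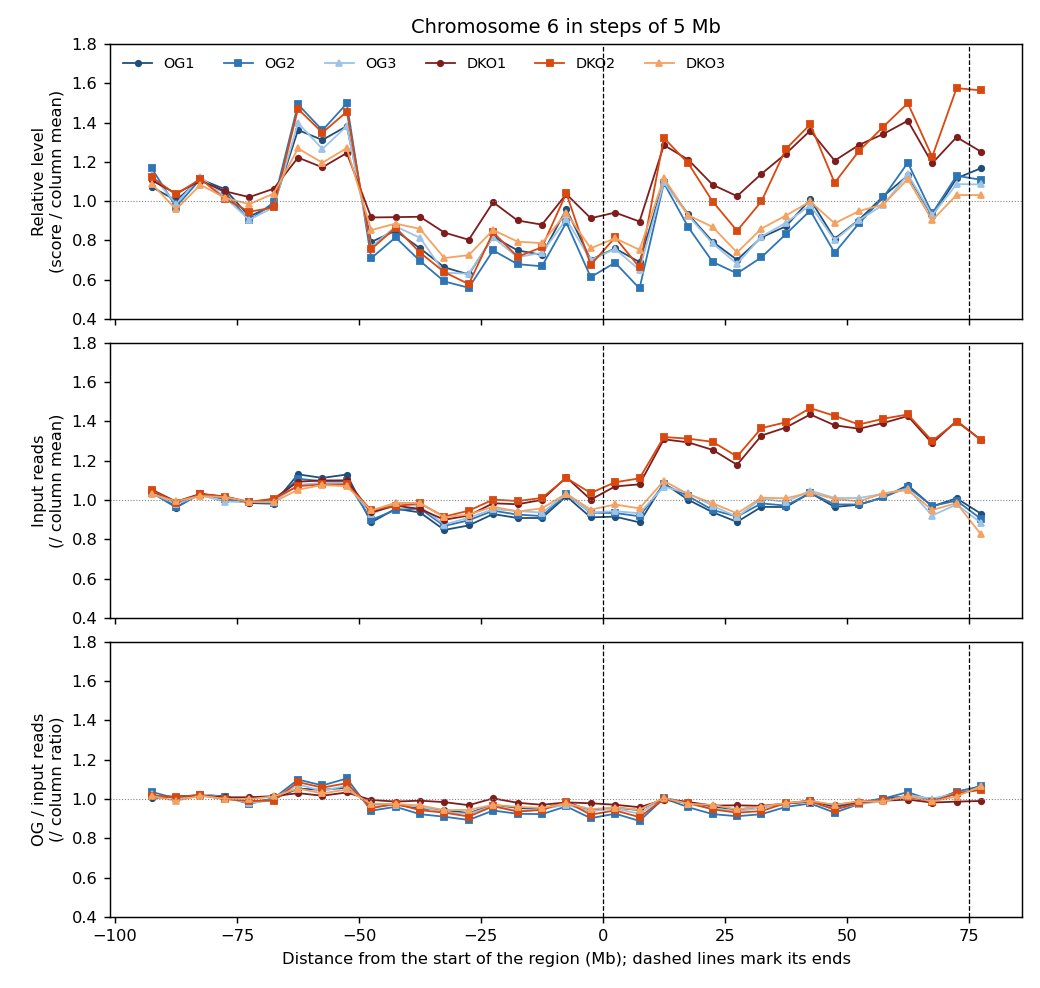
Relative level of the OG score (top), input reads (middle) and ratio of OG to input reads (bottom) along chromosome 6 in steps of 5 Mb, each divided by the value of its column, with 1 line per OGG1-/ (blue) and DKO (red to orange) column. The x axis is the distance from 95 Mb in Mb. Some way past the first dashed line DKO1 and DKO2 leave the other columns in score and input, where they reach 1.44 and 1.47, but not in the ratio.

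Genes of this region followed its level. Of 14 genes listed for distal 6q, 3 were higher in DKO at an unadjusted p below 0.05 and none were lower, with a median difference in relative level of 0.175. Over the 17294 gene bodies tested, 315 were higher (1.82 %) and 836 lower (4.83 %), with a median of -0.0612. The number lower was 504 without DKO1 and 1316 without DKO2. None passed the adjusted threshold (0 %). HDAC2, a histone deacetylase, was at 0.803, 1.06 and 0.716 in OG1 to OG3 and at 1.52, 1.27 and 1.08 in DKO1 to DKO3 (difference 0.431 ± 0.133, SE, limma adjusted p = 0.587). SYNE1, a nuclear envelope spectrin, differed by 0.300 ± 0.101 and ESR1, the oestrogen receptor, by 0.298 ± 0.117 (SE). The DKO columns lay above all OGG1-/ columns in these 3 genes and in LAMA2, a laminin chain. This was 28.6 % of the list, against 20.1 % of the gene bodies of the region and 3.67 % of all gene bodies. SOD2, the mitochondrial superoxide dismutase, was at 1.10, 1.10 and 1.22 in OGG1-/ and at 1.47, 1.48 and 0.993 in DKO. It was high only in the columns with high input. Among all 303 gene bodies of the region 62 were higher (20.5 %, against 21.4 % of the list) and 2 lower at an unadjusted p below 0.05.

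Input reads also differed elsewhere in the genome. Input reads differed in 840 windows that were higher in DKO (limma, adjusted p below 0.05, 2.99 %) and in 329 that were lower (1.17 %), of 28121 windows with reads in every column. The higher ones lay mostly on chromosome 6 (564), chromosome 20 (139) and chromosome 11 (85), and 88 of the lower ones lay on X. These counts rested on single columns. In all, 2 windows passed without OG2, 47 without OG1, 100 without DKO2, 250 without DKO1 and 1478 without DKO3. The log2 ratio of OG to input reads passed the test in 0 windows (0 %), with 1109 at an unadjusted p below 0.05 (618 without DKO1, 718 without OG2 and 1809 without DKO2).

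On chromosome 20 from 0 to 26 Mb, input was 0.994, 0.989 and 0.983 in OG1 to OG3 and 1.07, 1.07 and 1.01 in DKO1 to DKO3. The relative level of the score was 1.02, 1.02 and 1.03, against 1.09, 1.12 and 1.01. From 30 to 65 Mb of the same chromosome the score did not separate the groups. Input there was 1.10, 1.07 and 1.05 against 1.15, 1.13 and 1.18, while the score was 1.29, 1.42 and 1.29 against 1.24, 1.47 and 1.40, lowest in DKO1. On chromosome 11 from 75 to 110 Mb, input was 0.953, 0.966 and 0.976 against 1.03, 1.04 and 1.03. Here the score was higher in all 3 DKO columns (0.973, 0.903 and 0.942) than in all 3 OGG1-/ columns (0.872, 0.798 and 0.869), and the ratio overlapped. The X chromosome went the other way, with input of 0.952, 0.959 and 0.964 against 0.935, 0.938 and 0.896. Its score was 0.843, 0.814 and 0.855 in OGG1-/ and 0.752, 0.819 and 0.809 in DKO, with overlap.

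Across 567 windows of 5 Mb, the DKO minus OGG1-/ difference in score correlated with that in input at r = 0.749, and at r = 0.758 over the 552 windows outside the region on chromosome 6. The difference in score correlated with GC content at r = -0.797, and at r = -0.853 outside the region. These values describe windows that share the same 6 libraries, and score and input share the subtracted reads. They rest on means over the columns of each genotype, DKO1 included.

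**Figure D2:**
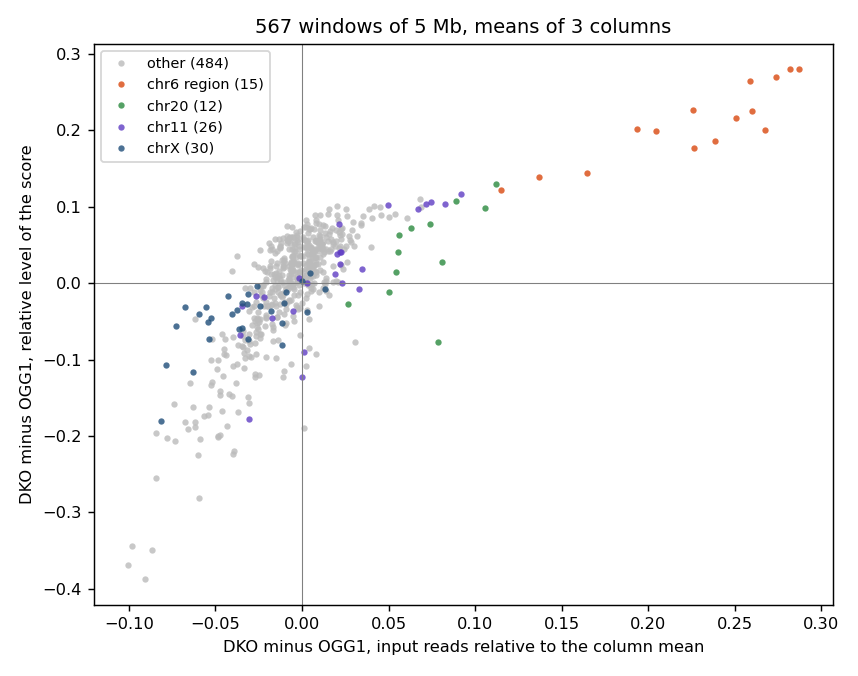
Difference between the DKO and OGG1-/ means in relative level of the score (y axis) against that in input reads relative to the column mean (x axis), with 1 point per window of 5 Mb. The 15 windows of the region on chromosome 6 extend to the upper right, and all windows together spread along a rising band (r = 0.749, n = 567).

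Among the 23 chromosomes, 1 was above in all 3 DKO columns and 3 were below. Chromosome 6 was at 0.927, 0.898 and 0.920 in OGG1-/ and at 1.09, 1.05 and 0.941 in DKO. Chromosome 1 was at 1.07, 1.09 and 1.09 against 1.04, 1.07 and 1.07, and chromosome 9 at 1.03, 1.04 and 1.03 against 1.01, 1.01 and 1.02. Chromosome 12 was the third one below. All 4 had an exact permutation p = 0.1 (adjusted p = 0.493 over 23). The ratio of OG to input reads overlapped between the groups on all 23 chromosomes. Chromosome 15, whose long arm holds a duplicated segment known in HAP1, had high scores in both genotypes, at 1.52, 1.56 and 1.50 against 1.38, 1.52 and 1.49.

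Focal gains and losses of DNA separated the columns further, and none of the 7 segments described here followed the genotype. In 3 of them OG3 sat with the DKO columns, apart from OG1 and OG2. TRAPPC9, CHRAC1 and AGO2 at chr8:140100001-140600000 had input of 1.16, 1.15 and 2.12 in OGG1-/ and 2.10, 2.04 and 2.05 in DKO, and scores of 1.37, 1.44 and 2.54 against 1.82, 2.62 and 2.36. Within WWOX, an oxidoreductase gene that spans a common fragile site, chr16:78900001-79100000 had input of 0.893, 0.862 and 0.532 against 0.567, 0.533 and 0.548. A stretch of chromosome 10 without a protein-coding gene, at chr10:89800001-90400000, had input of 1.81, 1.83 and 0.946 against 0.944, 0.998 and 1.01. In another window of WWOX, chr16:78600001-78700000, OG1 and OG2 had 7 and 2 OG reads and 2 input reads each. OG3 and the DKO columns had 2531 to 3534 OG reads there. These windows are a difference between columns of the same OGG1-/ label.

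DKO3 alone gained 2 segments. SEMA3C, a secreted semaphorin, at chr7:80700001-81000000 had input of 2.45 and a score of 2.34 in DKO3, against 0.953 to 1.06 and 0.733 to 0.997 in the other 5 columns. The segment with ATM, the kinase that responds to DNA double-strand breaks, at chr11:108300001-108700000 had input of 2.14 and a score of 2.15 in DKO3. It had input of 1.05 to 1.12 in the others. The remaining 2 segments, at chr13:18200001-18400000 and chr21:9700001-9900000, had less input in DKO3 than in the other 5 columns (0.136 against 0.795 to 0.832, and 1.62 against 2.31 to 2.61). ROBO2, described above, was absent from DKO1 and DKO2 only, among these 6 columns. Across these 7 segments the ratio of OG to input reads stayed between 0.913 and 1.09.

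**Figure D3:**
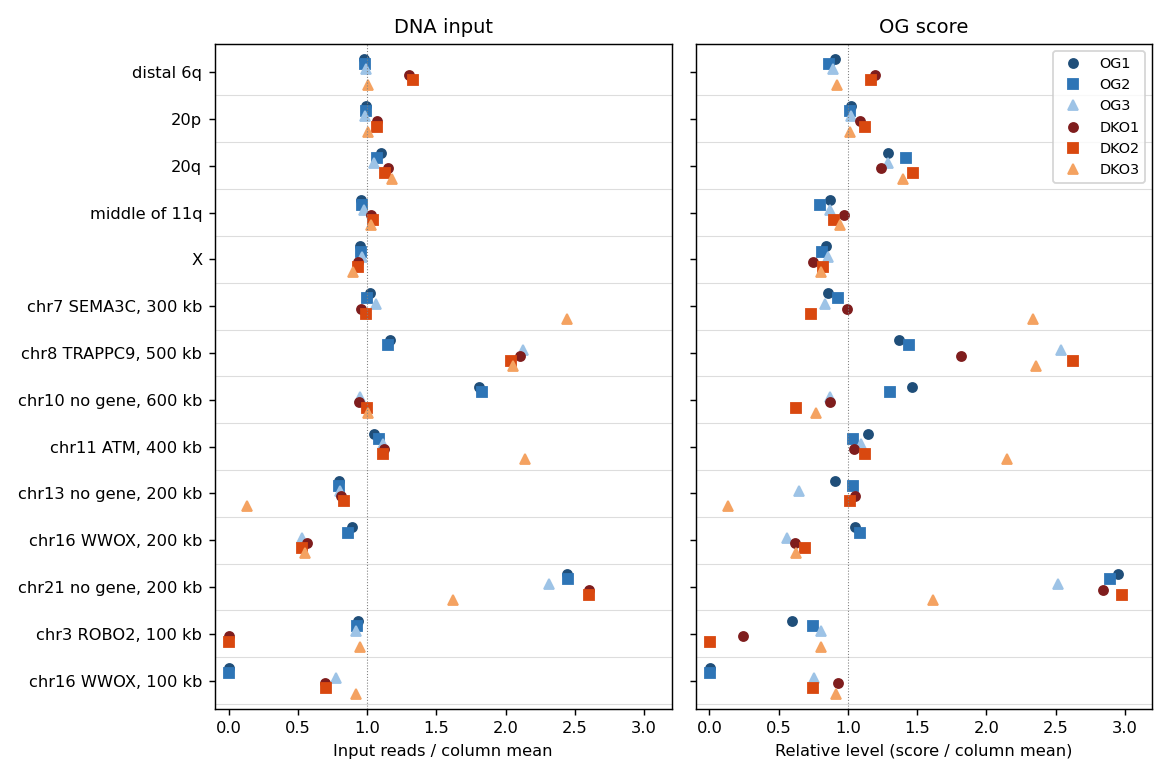
Input reads (left) and relative level of the OG score (right), each over the column mean, in chromosome segments and focal segments (rows), with 1 point per column, OGG1-/ in blue and DKO in red to orange. OG3 sits with the DKO columns in the TRAPPC9 segment (input 2.12 against 2.04 to 2.10), and DKO3 sits alone at SEMA3C (2.45).

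The windows named for their small p outside chromosome 6 from 95 to 170 Mb did not pass the adjusted threshold, and base composition ran with their direction. The smallest p belonged to chr4:69900001-70000000, which holds the milk casein genes CSN1S1 and CSN2 and the salivary gene STATH (GC 34.5 %). It was at 0.404, 0.365 and 0.410 in OG1 to OG3 and at 0.697, 0.769 and 0.869 in DKO1 to DKO3 (difference 0.385 ± 0.0606, SE, limma adjusted p = 0.367). The other 4 windows named as higher had GC between 33.5 and 37.4 %. They included chr21:21400001-21500000 in NCAM2, a neural adhesion gene, at 0.318, 0.565 and 0.492 against 0.946, 0.734 and 0.977. The 5 named as lower had GC between 46.0 and 57.1 %. RERE, a transcriptional co-regulator, lies in the window chr1:8300001-8400000, with 1.63, 1.75 and 1.57 against 1.15, 1.33 and 1.10. NR5A1, a steroidogenic factor gene, and the proteasome gene PSMB7 lie in chr9:124400001-124500000, with 1.94, 1.85 and 2.19 against 1.37, 1.60 and 1.16. The window chr2:241800001-241900000 holds PDCD1, which encodes the checkpoint receptor PD-1, with 1.59, 1.74 and 1.77 against 0.803, 1.21 and 1.27. The remaining pair were chr17:36400001-36500000 and chr1:144100001-144200000. All 10 windows showed groups that did not overlap, as they were chosen for small p.

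When each column was centred within 20 strata of GC content, 7 windows passed the adjusted threshold, 3 higher and 4 lower. The 3 higher ones were CDH4, a cadherin gene, at chr20:61600001-61700000 and 2 windows of the region on chromosome 6, one of them with ESR1 (0.842, 0.966 and 0.907 against 1.71, 1.64 and 1.21). The 4 lower ones included 2 windows from the segment of chromosome 10 in which OG1 and OG2 carried extra DNA. The others were chr1:144100001-144200000 and the TP53TG3 window at chr16:33300001-33400000, where paralogous copies make read placement uncertain. The TP53TG3 window was at 1.69, 1.25 and 2.27 in OGG1-/ and at 0.229, 1.07 and 0.833 in DKO. Without centring, but among windows with reads in every column, 3 windows passed (0.0107 %), all lower. They were the TP53TG3 window and the same 2 windows of chromosome 10. That filter was chosen after seeing the data.

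The dependence on base composition was itself compared per column. A 10-point increase in GC of a window raised the relative level by 0.594 in OG1, 0.811 in OG2 and 0.628 in OG3. The slopes were 0.333 in DKO1, 0.720 in DKO2 and 0.477 in DKO3. DKO1 had the lowest slope of the 6, the groups overlapped, and the exact permutation p was 0.3.

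CpG-dense DNA had the largest difference in relative level between the groups among the 6 genomic features tested. In the 21187 bins with at least 60 CpG per kb, which are mostly CpG islands, the relative level was 1.25 in OG1, 1.20 in OG2 and 1.44 in OG3 (1.30 ± 0.125, SD, n = 3). It was 0.458 in DKO1, 1.13 in DKO2 and 0.939 in DKO3 (0.844 ± 0.348, SD, n = 3). All 3 DKO columns were below, DKO2 only by a little, with an exact permutation p = 0.1 (adjusted p = 0.2 over 6). The ratio of OG to input reads overlapped between the groups, at 1.22, 1.27 and 1.38 against 0.938, 1.26 and 1.17. Input itself was 0.674, 0.609 and 0.569 against 0.609, 0.529 and 0.560. WT columns were at 1.57, 1.28 and 1.63 and MUTYH-/ columns at 1.18, 0.772 and 1.12.

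The DKO columns lay lower at higher CpG content. In bins with fewer than 5 CpG, DKO1 had the highest level of the 6 columns (0.793). At 30 to 39 CpG the OGG1-/ columns were at 1.61, 1.91 and 1.71 and the DKO columns at 1.17, 1.77 and 1.51. From 60 to 79 CpG they were at 1.46, 1.45 and 1.65 against 0.616, 1.37 and 1.14. At 80 or more CpG they were at 1.04, 0.923 and 1.21 against 0.287, 0.874 and 0.717. DKO1 lay below the other 5 columns in every stratum from 10 CpG on, while DKO2 stayed near the OGG1-/ columns.

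**Figure D4:**
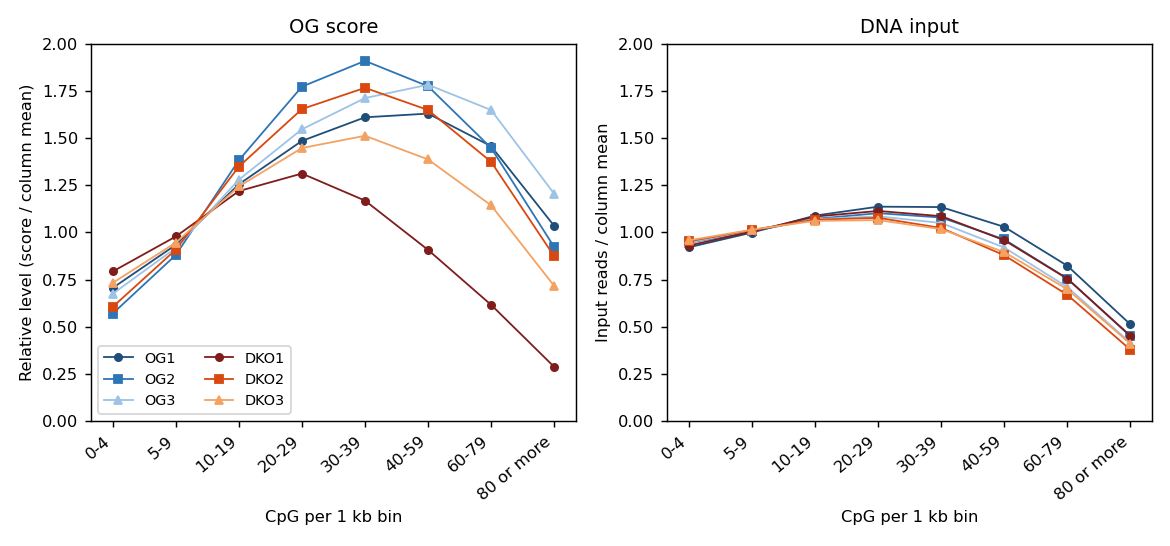
Relative level of the OG score (left) and input reads relative to the column mean (right) against the number of CpG per 1 kb bin, with 1 line per OGG1-/ (blue) and DKO (red to orange) column. At 80 or more CpG the score was 0.287 in DKO1 and between 0.717 and 1.21 in the other 5 columns. Input there was 0.452 in DKO1 and between 0.378 and 0.512 in the other 5.

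Exons were lower in DKO, at 1.28, 1.31 and 1.27 in OGG1-/ against 1.10, 1.25 and 1.20, and intergenic bins were higher, at 0.920, 0.910 and 0.922 against 0.948, 0.923 and 0.934. Both had an exact permutation p = 0.1 (adjusted p = 0.2), and neither overlapped without DKO1. The ratios of OG to input reads overlapped in both. Promoter regions, defined as 1 kb upstream of a gene, were at 1.32, 1.38 and 1.36 against 1.04, 1.33 and 1.22 and overlapped (exact permutation p = 0.2). Introns differed by 0.000198 and overlapped. Bins with a G-quadruplex motif, that is 4 runs of at least 3 G separated by loops of 1 to 7 bases on either strand, were at 1.26, 1.34 and 1.31 against 1.07, 1.35 and 1.20. They overlapped as well (exact permutation p = 0.4).

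In single bins of 1 kb, 7228 were gained in DKO (0.258 %) and 8431 were lost (0.301 %) of 2802495 tested, at p of at most 0.01 and a log2 change beyond 0.5. After adjustment over all bins, 0 were gained and 36 were lost (limma, adjusted p below 0.05, 0.00128 % lost). Both splits depended on the setting. At the unadjusted threshold, 8817 were gained and 4206 lost without OG2, 7270 and 4315 without OG1, and 7111 and 4068 without OG3. Conversely, 3723 were gained and 8959 lost without DKO1, 4073 and 12265 without DKO2, and 4027 and 10587 without DKO3. After adjustment, 77 were gained and 57 lost with no filter on low bins, 8 and 78 with only the 6 columns, and 9 and 26 without OG3. The variance in this fit came from the trend over all bins and not from a bin's own replicates, so that a single deviating column could carry a bin past the threshold. DKO1 was the lowest of the DKO columns in 30 of the 36 bins. All 3 DKO columns lay below all 3 OGG1-/ columns in 13 of them, and DKO2 and DKO3 both did so in 14. Without DKO1 the count was 34, without DKO2 it was 106 and without DKO3 it was 74, all lost. It was 0 with the log2 ratio of OG to input reads and 0 on the linear scale.

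The 36 bins had input between 1.71 and 24.0 times the genome mean, averaged with the WT and MUTYH-/ columns included, and a median GC of 65.3 %. In the bin with the highest input, chr1:2654001-2655000, reads were recovered for DKO3 alone among the OGG1-/ and DKO columns (20.9 times its mean). Their median relative level was 11.6 in OG1, 9.07 in OG2 and 13.1 in OG3. It was -0.348 in DKO1, 7.54 in DKO2 and 6.32 in DKO3. Median input reads did not show this order, at 167, 123 and 99 in OGG1-/ and 129, 95 and 118 in DKO. Clusters held most of these bins. There were 13 at or just before the 5S rRNA genes, 5 on chromosome 15 between 60 and 90 Mb, 4 in the run chr16:33336001-33340000 and 3 in the run chr1:144102001-144105000. At chr15:84500001-84900000, inside that range of chromosome 15, input was 2.27 to 2.32 times the column mean in OGG1-/ and 2.14 to 2.24 in DKO.

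**Figure D5:**
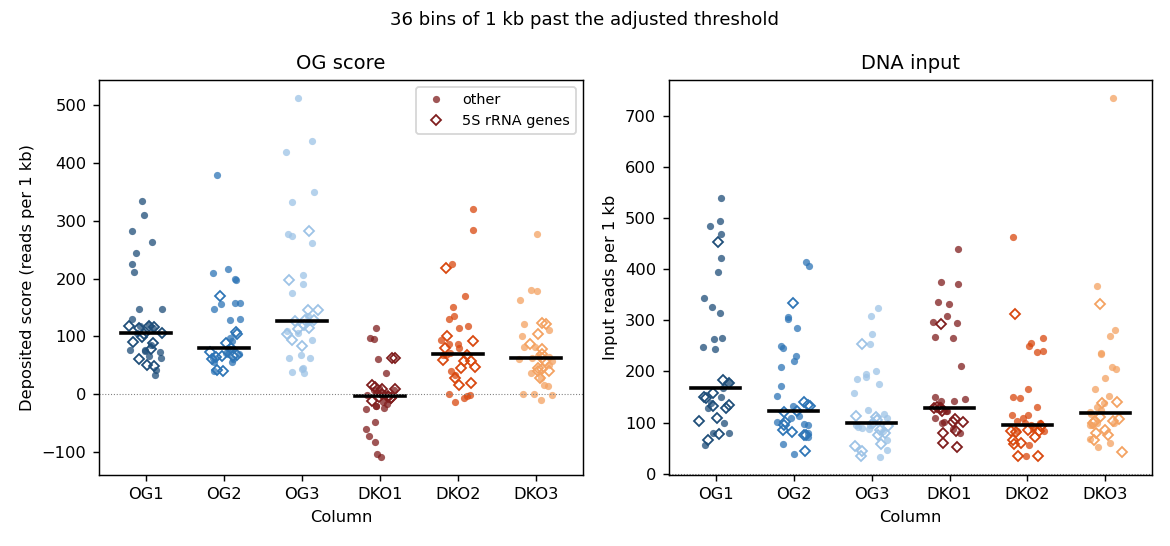
Deposited OG score (left) and input reads (right) per 1 kb in the 36 bins past the adjusted threshold, with 1 point per bin and column, open diamonds for the 13 bins at or just before the 5S rRNA genes and a black bar at each column's median. The median score was below 0 in DKO1 and between 62.6 and 127 in the other 5 columns. Input of chr1:2654001-2655000 is drawn for DKO3 only.

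Stretches of 200 bases from the middle of bins of the lost and gained groups are shown so that their base composition can be read. They are examples, namely 2 of the 5 lost bins with the smallest p, the lost bin just before the 5S rRNA genes and the 2 gained bins with the smallest p. They are reference sequence of GRCh38, plus strand, with runs of at least 3 G or 3 C in capitals.
Lost, before the 5S rRNA genes, chr1:228609401-228609600: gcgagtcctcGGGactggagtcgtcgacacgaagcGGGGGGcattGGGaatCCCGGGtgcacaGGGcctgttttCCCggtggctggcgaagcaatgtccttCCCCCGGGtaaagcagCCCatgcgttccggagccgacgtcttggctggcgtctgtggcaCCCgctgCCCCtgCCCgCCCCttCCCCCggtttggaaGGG
Lost, chr21:8988401-8988600: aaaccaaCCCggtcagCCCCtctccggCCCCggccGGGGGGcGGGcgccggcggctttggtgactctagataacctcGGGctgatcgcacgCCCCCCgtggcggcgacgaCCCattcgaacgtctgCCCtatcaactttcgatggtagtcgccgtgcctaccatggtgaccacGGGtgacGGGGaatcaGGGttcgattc
Lost, chr1:144104401-144104600: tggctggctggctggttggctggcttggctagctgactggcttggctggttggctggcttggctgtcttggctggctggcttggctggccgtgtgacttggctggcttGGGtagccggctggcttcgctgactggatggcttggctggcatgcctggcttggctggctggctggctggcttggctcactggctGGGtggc
Gained, chr20:30824401-30824600: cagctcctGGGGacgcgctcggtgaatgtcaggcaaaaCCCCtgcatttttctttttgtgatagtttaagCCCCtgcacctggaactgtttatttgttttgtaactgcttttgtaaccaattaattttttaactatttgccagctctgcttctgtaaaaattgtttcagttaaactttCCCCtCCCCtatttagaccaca
Gained, chr16:70132401-70132600: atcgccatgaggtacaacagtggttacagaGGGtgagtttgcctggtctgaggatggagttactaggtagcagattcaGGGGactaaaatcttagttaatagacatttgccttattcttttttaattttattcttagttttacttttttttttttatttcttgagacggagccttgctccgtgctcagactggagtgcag
The stretches from before the 5S rRNA genes and from chromosome 21 are rich in such runs, with 57 and 45 of 200 bases in capitals. The one from chr1:144104401-144104600 is a repeat of short G-containing units with only 6 bases in capitals and a GC content of 66.0 %. The gained stretches have 20 and 7 bases in capitals.

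The 5S rRNA genes encode the small RNA of the large ribosomal subunit, and 17 of them stand in tandem on chromosome 1 between 228610268 and 228646158. Over these genes the relative level was 7.74 in OG1, 6.09 in OG2 and 9.31 in OG3. It was 1.05 in DKO1, 5.49 in DKO2 and 4.52 in DKO3. All DKO columns were below, DKO1 by far the most. The ratio of OG to input reads was 1.42, 1.43 and 1.99 in OGG1-/ and 0.863, 1.50 and 1.27 in DKO, with overlap. The 100 kb before the genes had levels of 1.51, 1.35 and 1.34 against 0.656, 1.16 and 0.961, and 3 of the 36 bins lie in it. The 100 kb after the genes had levels of 1.19, 1.26 and 1.11 against 0.734, 1.07 and 1.11, and there DKO3 lay just above OG3. Near-identical copies share reads here, so single bins of the array are uncertain. The bin of the 5S pseudogene RNA5SP162, chr1:228558001-228559000, had the smallest p of all bins, yet DKO2 was not low in it. Its score was 211, 200 and 349 in OGG1-/ and -61.0, 283 and 181 in DKO.

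In the bin chr21:8988001-8989000, for which the gene annotation used here lists no gene, the 3 DKO columns had similar scores but not similar reads. Input in this bin was 4.72 to 13.3 times the column mean. Whether reads of other copies of this sequence were placed in it was not tested. The score was 243, 216 and 274 in OG1 to OG3 and 96.1, 87.0 and 122 in DKO1 to DKO3 (log2 change -1.26 ± 0.0701, SE). The input differed too. It was 394, 406 and 324 reads in OGG1-/ and 440, 463 and 166 in DKO, so that DKO3 had the least DNA. OG reads were 532, 479 and 549 against 418, 499 and 256. They exceeded the input reads in every column but DKO1. In the bin chr1:144104001-144105000 the score was 311, 129 and 332 against -48.3, 86.6 and 57.0 (log2 change -3.80 ± 0.225, SE). OG2 there was closer to DKO2 than to OG1. The SE of both bins come from the trend over all bins and do not measure the spread of these columns.

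Lost bins at single genes included MYC, the transcription factor gene, and SOX2, a pluripotency factor gene. The MYC bin, chr8:127738001-127739000, had a score of 117, 148 and 206 in OGG1-/ and -23.2, 68.2 and 179 in DKO, so that DKO3 lay inside the OGG1-/ range. The SOX2 bin, chr3:181712001-181713000, had a score of 147, 156 and 136 against 2.02, 79.2 and 80.9, with all DKO columns below. Input in these bins was 5.80 to 8.79 and 3.31 to 5.02 times the column mean, while most neighbouring bins were near it. KBM-7 cells were exposed to reprogramming factors when HAP1 was made, and whether this bears on the input of these bins was not tested. On chromosome 15 the lost bins lay in MEGF11, THSD4 and SCAMP5 among others. THSD4 had a score of 66.4, 78.7 and 39.1 against -1.82, -0.661 and 28.2, and its input was 57, 39 and 47 reads in OGG1-/ and 102, 84 and 61 in DKO.

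None of the bins named as gained passed the adjusted threshold. The smallest p belonged to chr20:30824001-30825000, with a score of -3.00, 31.9 and -6.24 in OGG1-/ and 48.9, 59.8 and 62.0 in DKO (log2 change 4.10 ± 0.839, SE, limma adjusted p = 0.0755). The others lay in PDPR on chromosome 16, a gene with near-identical copies, in TMEM266 on chromosome 15 and at 2 more places on chromosome 15, among them chr15:69277001-69278000 with -1.71, -0.874 and 31.0 against 46.9, 33.2 and 51.1. The groups overlapped in the TMEM266 bin and not in the other 4. The SE given for chr20:30824001-30825000 comes from the trend over all bins and not from the spread of its columns. The bins of chromosome 15 lie between 60 and 90 Mb, a range that also held lost bins.

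Genes of base excision repair, the pathway to which OGG1 and MUTYH belong, gave counts near those of all gene bodies. Of 22 gene bodies tested from a list of 24, 0 were higher and 1 was lower at an unadjusted p below 0.05 (4.55 %, against 4.83 % of all gene bodies), and 2 had all DKO columns below (9.09 %, against 8.40 % of all gene bodies), with 0 of the list above (3.67 % of all gene bodies). The median difference was -0.166, against -0.0612 over all gene bodies. NEIL1, a glycosylase for oxidised bases, was the lower one, at 4.99, 4.65 and 4.60 in OGG1-/ and 3.16, 3.83 and 2.61 in DKO (difference -1.55 ± 0.430, SE, limma adjusted p = 0.572). Its input was also high in every column, at 2.21, 2.15 and 2.04 against 1.98, 2.06 and 2.12. NUDT1 was at 2.39, 2.28 and 1.49 against 1.23, 1.25 and 1.35 (difference -0.781 ± 0.513, SE), also without overlap.

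The edited genes themselves did not differ beyond the spread. MUTYH was at 1.56, 2.26 and 2.10 in OGG1-/ and at 1.29, 2.17 and 1.01 in DKO (difference -0.485 ± 0.441, SE, limma adjusted p = 0.861). OGG1 was at 1.81, 2.10 and 1.19 against 1.43, 2.08 and 0.988 (limma adjusted p = 0.926). Bins of 1 kb do not resolve the small edits, so these levels are no check of the knockouts.

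Among 15 partners of MUTYH and mismatch repair genes, 1 was higher and 1 was lower at an unadjusted p below 0.05 (6.67 % each, against 1.82 and 4.83 % of all gene bodies), with a median difference of -0.0285. With single genes called, these shares say little about the list. HUS1, a subunit of the checkpoint clamp that binds MUTYH, was at 0.990, 0.772 and 1.11 in OGG1-/ and at 1.91, 1.39 and 1.33 in DKO (limma adjusted p = 0.701). CHEK1, a checkpoint kinase, was at 1.05, 0.825 and 0.939 against 0.527, 0.432 and 0.785 (limma adjusted p = 0.680). Of 13 oxidative stress genes tested from a list of 15, 1 was lower at an unadjusted p below 0.05 (7.69 %, against 4.83 % of all gene bodies) and 0 were higher. It was the peroxiredoxin gene PRDX1, at 2.35, 1.70 and 1.66 against 1.20, 1.37 and 1.07 (limma adjusted p = 0.682). None of these genes passed the adjusted threshold.

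The kilobase upstream of genes gave no adjusted call among 19630 genes (0 %). At an unadjusted p below 0.05, 310 were higher (1.58 %) and 729 were lower (3.71 %). All 3 DKO columns lay above in 3.25 % of the genes and below in 7.58 %. Of the 24 base excision repair genes, 2 were lower. NTHL1, a glycosylase for oxidised pyrimidines, was at 2.39, 5.98 and 4.01 against 0.184, 1.91 and 0.0976 (difference -3.39 ± 1.01, SE, limma adjusted p = 0.735). LIG1, the DNA ligase that also seals repair patches, was at 1.14, 2.05 and 1.52 against 0.826, -0.861 and -0.619. None of 14 mismatch repair genes, 15 oxidative stress genes and 14 genes of distal 6q passed this threshold. A level upstream of a gene rests on very few bins and is accordingly noisy.

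The change on loss of MUTYH was finally compared between OGG1-null and OGG1-proficient cells. The 2 contrasts, DKO against OGG1-/ and MUTYH-/ against WT, share no column. Their difference passed the adjusted threshold in 0 of 28395 windows (limma interaction, 0 %), with 1501 windows at an unadjusted p below 0.05 (2400 without DKO2). MUTYH-/ against WT also gave 0 windows (0 %), with 928 at an unadjusted p below 0.05. On chromosome 6 from 95 to 170 Mb, loss of MUTYH went with a difference of 0.209 in the absence of OGG1 and of -0.0115 in its presence, and only the former contrast had columns with high input.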

How the data were processed

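Per the labels and the study's methods, the authors trimmed reads with cutadapt 2.8, aligned them to GRCh38 with Bowtie2 2.3.5.1 and counted them in 1 kb bins. The deposited score per bin is the OG read count minus the input count scaled by signal extraction scaling. Its values are differences and not counts, so limma 3.58.1 (R 4.3.3) was used here in place of a count test. OG and input reads were recovered from the score as whole numbers, with at most 8 bins per column unsolved (at most 2 in the OGG1-/ and DKO columns). The 1 kb fit used log2(score + 1) with scores below 0 set to 0, for bins above 0 in at least 3 of the 12 columns, and windows and genes used linear relative levels. Windows needed 50 bins and gene bodies 5. All 12 columns (WT, MUTYH-/, OGG1-/ and DKO) entered each fit, with the contrast DKO minus OGG1-/. Region, chromosome and feature means were compared by two-sided exact permutation tests. OG reads per column ranged from 88185732 to 113915679 in OGG1-/ and DKO, and from 59601849 to 109744662 in WT and MUTYH-/. Intervals from these depths would cover counting error only. Windows named were the 5 with the smallest p in each direction outside chromosome 6 from 95 to 170 Mb, and bins the 5 gained and 5 lost with the smallest p. The SOX2, THSD4, 5S and focal segment results were chosen after their values were seen. Genes came from the 4 lists. The comparison, region and gene lists were chosen with earlier results of these data known. The fits were tested on simulated data. Alternatives covered scaling, GC, filters, pairing and left-out columns. The column numbers were not shown to pair the samples. Deviations from the genotype mean correlated at r of 0.202, 0.340 and 0.0317 between same-numbered OGG1-/ and DKO columns. Between differently numbered ones r ranged from -0.294 to 0.115. Some items of the lists and segments are not reported here.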

Additional observations from a re-analysis of the deposited data

How the results depend on the processing

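No window passed the adjusted threshold in the main comparison, and most alternatives gave 0 as well. Centring within GC strata gave 7 windows (5 outside chromosome 6 from 95 to 170 Mb) and restricting to windows with reads in every column, chosen after seeing the data, gave 3 (3 outside). Both together gave 7 (5 outside). Leaving out 1 column gave 0 to 1, in all windows and outside the region. With reads in every column, leaving out 1 column gave 1 to 69, the highest without DKO2, and 31 without DKO3. The interaction gave 2 windows with GC centring and 0 to 1 when 1 column was left out. The 15659 bins of 1 kb became 36 with adjustment, 26694 on the linear scale, 26412 with all bins, 7440 with only the 6 columns, and 11179 to 16338 with 1 column left out. The bins past the adjusted threshold were 12 with GC centring, 12 with log2(score + 5), 134 with all bins, 86 with only the 6 columns, 106 without DKO2 and 74 without DKO3. The chromosome 6 difference fell to 0.00378 as a ratio of OG to input reads. The difference in mean score turned to 0.0279 with scores below 0 set to 0, and ranged from -0.422 to 0.362 with 1 column left out (0.191 without OG3, 0.362 without DKO1). The 4 chromosomes without overlap became 7 with median scaling, 0 for the ratio, 8 for input, 14 for OG reads and 4 to 17 with 1 column left out. The 3 features without overlap became 0 for the ratio, 5 for OG reads and 3 to 5 with 1 column left out. Gene bodies at an unadjusted p below 0.05 split into 196 higher and 987 lower with GC centring. With the column number as a replicate block, 0 windows and 15617 bins were called. The numbers are not shown to pair the columns, and not every column correlated best with its own number. The causes of these changes were not tested. Depth limits single bins.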
